A study of Mus musculus with 24 samples.

Results

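The genes described here encode the core of the splicing machinery. They are the 61 genes of the deposited count file, out of 55401 in all, whose names begin with Snrp, Snrnp, Srsf, Sf3a, Sf3b or Prpf followed by the family's number or letter, or are Lsm1 to Lsm8, with 3 names ending in a pseudogene mark left out. RNA sequencing was done on pools of 5 mouse oocytes, and the 12 columns of the file form 6 labelled groups of 2. The labels give neither strain nor age. A pair of groups concerns the animal: con, the control, and in vivo PSMPs, with exposure to polystyrene microplastics (PSMPs). Another pair concerns culture: con-in vitro is the control, and in vitro PSMPs the exposed group. A further group received SAHA, also called vorinostat, an inhibitor of many histone deacetylases (SAHA). The last was exposed and made to overexpress the histone deacetylase gene Hdac3 (PSMPs & OE-Hdac3). The series title places the study in oocyte maturation and in a shortage of histone deacetylases after microplastic exposure. The labels do not say which control belongs to SAHA, or by which route the overexpressing oocytes were exposed, so both candidates were compared in each case.

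Splicing removes introns from pre-mRNA and joins the exons. It is carried out by the spliceosome, which is built from small nuclear ribonucleoproteins, each a small nuclear RNA with its own proteins. U1 recognises the 5' splice site, U2 the branch site, and the U4/U6.U5 tri-snRNP brings in the catalytic core. A ring of Sm proteins surrounds the RNAs of U1, U2, U4 and U5, a ring of LSM proteins surrounds U6, and SR proteins bind exons and help to choose splice sites. A growing oocyte transcribes and stores mRNA, and a fully grown one has nearly stopped transcription and lives on that store. In such a bulk sample of pooled oocytes, less RNA of a gene per cell and fewer cells holding it cannot be told apart.

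The 61 genes fell into 7 roles. There were 9 Sm ring genes, 6 of U1, 11 of U2, 13 of the tri-snRNP with the Prp19 complex, 3 of the U11 particle of the minor spliceosome, 8 of the LSM ring and 11 of SR proteins. After a filter on low counts 60 of them were tested among 16736 genes. Srsf12 was not tested, and it was at 0 in 6 of the 11 libraries used. A gene is said to have risen or fallen where the adjusted p of edgeR's quasi-likelihood test was under 0.05, with Benjamini-Hochberg adjustment over all genes tested.

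Total counts per library ran from 6.22 M in con-in vitro to 35.6 M in con. Counts of the 2 columns of in vivo PSMPs agreed within sampling noise and were counted as 1 sample, so that this group has n = 1 and the others n = 2. Its comparisons assume that the lone sample varies like the other groups. Hdac3 stood at 228 to 336 CPM (counts scaled to a common library size with TMM factors) in the overexpressing libraries and at 7.17 to 37.4 CPM in the others. All 15 oocyte markers had counts in every library, and their summed level was 12778 to 13836 CPM in con-in vitro, with 22284 to 64778 CPM elsewhere. Of 20 granulosa and cumulus markers, 4 to 16 were at 0 in a library, with summed levels of 34.7 to 167.6 CPM. The splicing genes held 0.213% to 0.591% of the raw counts of a library, lowest in both con-in vitro libraries, and 54 to 61 of them had counts. Summed in CPM, they were not lowest there, at 4050 and 3730 CPM against 3557 to 5101 CPM in the other libraries. The TMM factors were 0.542 and 0.572 in con-in vitro and 0.905 to 1.57 elsewhere.

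RefSeq promoters of the build GRCm38.p6 (mm10) were matched for 51 of the 61 genes, as windows from 250 bases before to 50 bases after the annotated start. Those of 4 genes are shown because they carry the contrast that the values turn on. Snrpe and Lsm7 were at their lowest in con-in vitro, and Prpf39 and Prpf19 had their highest group mean there. For Prpf19 the first con-in vitro library was below both PSMPs & OE-Hdac3 libraries. Each line gives the 120 bases up to the start, 5' to 3', with GGGCGG (the GC box, bound by Sp1) or CCGGAAG (the core bound by ETS factors) in capitals where either strand holds it.
Snrpe, chr1:133610281-133610400, minus strand: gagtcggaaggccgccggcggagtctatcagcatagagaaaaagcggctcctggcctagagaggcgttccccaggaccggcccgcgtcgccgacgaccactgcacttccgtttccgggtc
Lsm7, chr10:80855210-80855329, minus strand: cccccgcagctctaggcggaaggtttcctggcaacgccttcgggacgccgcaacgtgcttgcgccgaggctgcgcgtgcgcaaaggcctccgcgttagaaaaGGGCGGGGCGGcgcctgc
Prpf39, chr12:65036214-65036333, plus strand: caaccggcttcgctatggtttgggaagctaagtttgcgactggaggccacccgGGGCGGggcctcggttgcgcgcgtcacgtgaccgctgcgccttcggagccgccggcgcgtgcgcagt
Prpf19, chr19:10895111-10895230, plus strand: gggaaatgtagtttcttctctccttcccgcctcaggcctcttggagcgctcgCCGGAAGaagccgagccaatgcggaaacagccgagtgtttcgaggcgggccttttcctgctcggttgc
The GC box letters occur in Lsm7 and Prpf39, whose levels moved in opposite directions between the controls. Over the whole windows, the GC box was in 37 of the 51 promoters (72.5%, against 35.6% of 32817 RefSeq promoters of this length). The ETS letters were in 20 (39.2% against 8.86%), and TATAAA in 5 (9.80% against 13.6%). GCATGCGC, of NRF1, was in 4 (7.84% against 2.71%), and AAGATGGC, of YY1, in 3 (5.88% against 2.74%). Both strands were searched, and a match of letters is a description of the sequence only. The median GC content was 58.3% in these promoters and 52.7% in all.

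**Figure D1:**
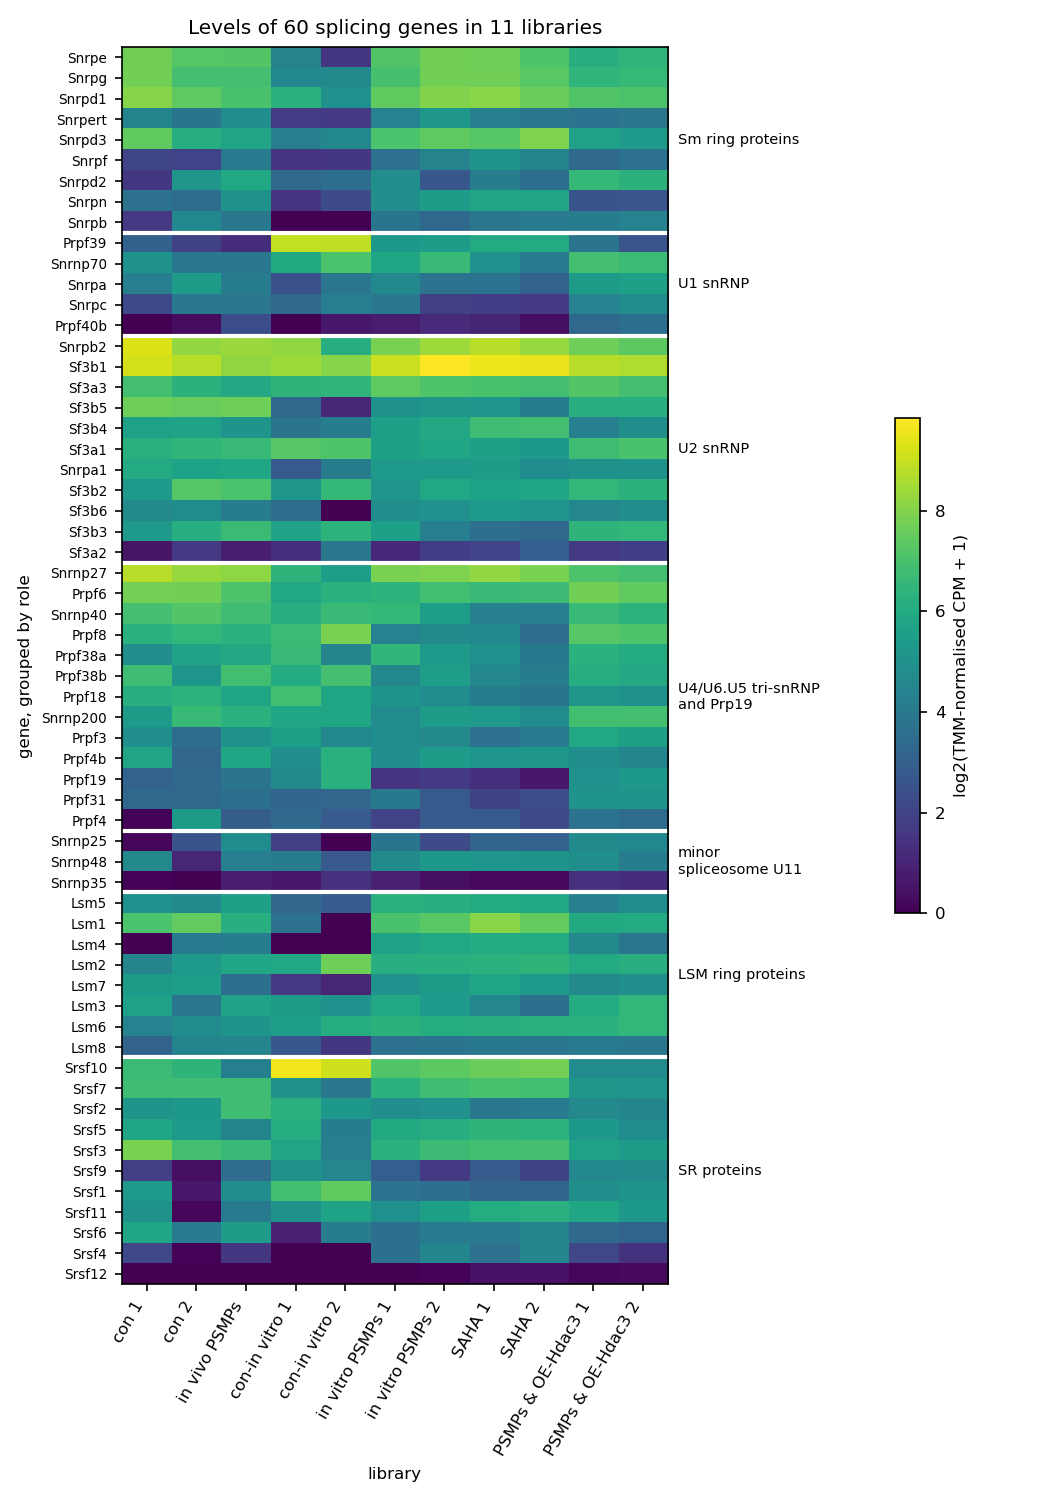
Levels of 60 of the 61 genes (rows, grouped by role) in the 11 libraries (columns), as log2 of TMM-normalised CPM + 1. The 2 con-in vitro columns are dark through most of the Sm ring and bright at Prpf39 and Srsf10.

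Scaled to gene length (the summed exons in the file), levels within each role spread widely. The highest mean over the 6 groups in the Sm ring was that of Snrpe at 93.3 CPM per kb, and the lowest that of Snrpb at 5.9997 CPM per kb. In U2 the range ran from Snrpb2, a protein that binds the U2 RNA, at 106.7 CPM per kb to Sf3a2 at 1.19 CPM per kb. The tri-snRNP ran from Snrnp27 at 124 CPM per kb to Prpf4 at 1.62 CPM per kb. Among U1 genes, Prpf40b was last at 0.547 CPM per kb. The LSM ring ran from Lsm5 at 50.6 to Lsm8 at 3.21 CPM per kb, and the SR proteins from Srsf10 at 27.9 to Srsf12 at 0.0314 CPM per kb. The 3 U11 genes were low, from Snrnp25 at 11.3 to Snrnp35 at 0.510 CPM per kb.

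The Sm ring set the con-in vitro libraries apart from every other library. The summed level of its 9 genes was 153 and 98.9 CPM there, against 901 and 600 in con, 593 in in vivo PSMPs, 675 and 963 in in vitro PSMPs, 971 and 854 in SAHA, and 493 and 489 in PSMPs & OE-Hdac3. No con-in vitro library reached the lowest of the others. In 8 of the 9 genes both con-in vitro libraries were below all 9 other libraries, the exception being Snrpd2.

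Snrpe (ENSMUSG00000090553.8, chr1:133603871-133610291, minus strand, in mm10) had 206 and 152 CPM in con, 149 in in vivo PSMPs, 19.9 and 1.91 in con-in vitro, 143 and 216 in in vitro PSMPs, 201 and 138 in SAHA, and 72.9 and 87.0 in PSMPs & OE-Hdac3. The con-in vitro values rest on 67 and 7 counts, and they do not overlap with any other group. The fitted log2 fold change of Snrpe, con-in vitro over con, was -4.04 (SE 0.86, edgeR adjusted p = 0.0106). For in vitro PSMPs over con-in vitro it was 4.05 (SE 0.86, edgeR adjusted p = 0.0146).

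Snrpg (ENSMUSG00000057278.8, chr6:86371304-86379328, plus strand), which sits beside Snrpe in the ring, had 215 and 123 CPM in con, 118 in in vivo PSMPs, 23.1 and 25.1 in con-in vitro, 126 and 217 in in vitro PSMPs, 207 and 161 in SAHA, and 88.9 and 96.8 in PSMPs & OE-Hdac3. Again the con-in vitro libraries alone were far down, and they agreed closely with each other. The log2 fold change was -2.81 (SE 0.43) in con-in vitro against con and 2.83 (SE 0.43) in in vitro PSMPs against con-in vitro, with edgeR adjusted p = 0.00249 and 0.0029.

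Snrpd3 (ENSMUSG00000020180.10, chr10:75517551-75537381, plus strand) had 175 and 69.5 CPM in con, 52.7 in in vivo PSMPs, 17.8 and 23.0 in con-in vitro, 132 and 170 in in vitro PSMPs, 152 and 246 in SAHA, and 48.3 and 39.6 in PSMPs & OE-Hdac3. In vivo PSMPs and PSMPs & OE-Hdac3 lay between con-in vitro and the rest. Snrpd1 had 77.1 and 30.1 CPM in con-in vitro and 128 to 275 CPM in every other library. Snrpf, by contrast, was already low in con, at 3.13 and 2.96 CPM, against 1.78 and 1.91 in con-in vitro, and the remaining libraries had 9.63 to 33.5.

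Snrpb, which encodes the SmB protein, was at 0 in both con-in vitro libraries. It had 2.08 and 22.9 CPM in con, 14.4 in in vivo PSMPs, 13.4 and 9.05 in in vitro PSMPs, 14.0 and 15.1 in SAHA, and 17.2 and 19.6 in PSMPs & OE-Hdac3. Set against 3 counts over the group, the limit that a count of 0 allows, con-in vitro was at least 32.9-fold lower than both con libraries pooled. This bound does not hold for the first con library alone, which was far below the second. In vitro PSMPs was at least 26.3-fold higher than con-in vitro on the same floor, and SAHA at least 34.2-fold higher. All 3 passed (edgeR adjusted p = 0.014, 0.0203 and 0.0152). Snrpn, a near-identical gene whose protein replaces SmB in brain, had 12.1 and 10.1 CPM in con, 1.78 and 3.83 in con-in vitro, 28.4 and 41.0 in in vitro PSMPs, 52.2 and 53.4 in SAHA, and 4.95 and 5.09 in PSMPs & OE-Hdac3. Reads shared by Snrpb and Snrpn could have been split between them, and 27.3% of the exonic length of Snrpn is shared with Gm38393 and 10.0% with Snurf on the same strand, so these 2 genes are uncertain. The same holds for Snrpert, a retrotransposed copy of Snrpe, at 2.37 and 2.19 CPM in con-in vitro and 12.5 to 36.3 elsewhere, and for Snrpf, 65.9% of whose exonic length overlaps Ccdc38 on the other strand.

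Between the controls, 7 of the 9 Sm ring genes fell in con-in vitro against con and none rose, with a median fitted log2 fold change of -2.58. This and the other medians given for these genes are the same with genes at 0 in a group set at their bound. Snrpf, at -0.72, and Snrpd2 did not pass. Over all 60 tested genes 17 fell, where 10.5% of all genes tested fell, and 8 rose, where 14.7% did. The median was -0.60, beside 0.00 over all genes. That 0.00 was exactly 0, the value fitted to a gene with no counts in either group. Each con and con-in vitro library had counts for 11640 to 12843 genes, fewer than the 16736 tested. Above 0 were 42.3% of all genes tested and 24 of the 60. Neither this share of all genes nor their median describes detected genes alone. Fits with DESeq2's size factors and with library totals gave 6 and 7 lower Sm ring genes and none higher. Depth moved with this contrast: con-in vitro had 6.22 M and 6.40 M counts and con 30.7 M and 35.6 M, and its part in the result was not tested. Library totals in place of TMM factors gave 22 lower and 2 higher of the 60 and moved the median over all genes from 0.00 to -0.49. In a fit to these 2 groups alone 5 of the 60 passed, 1 of them in the Sm ring, and without the first SAHA library 14 did, without the second 16.

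**Figure D2:**
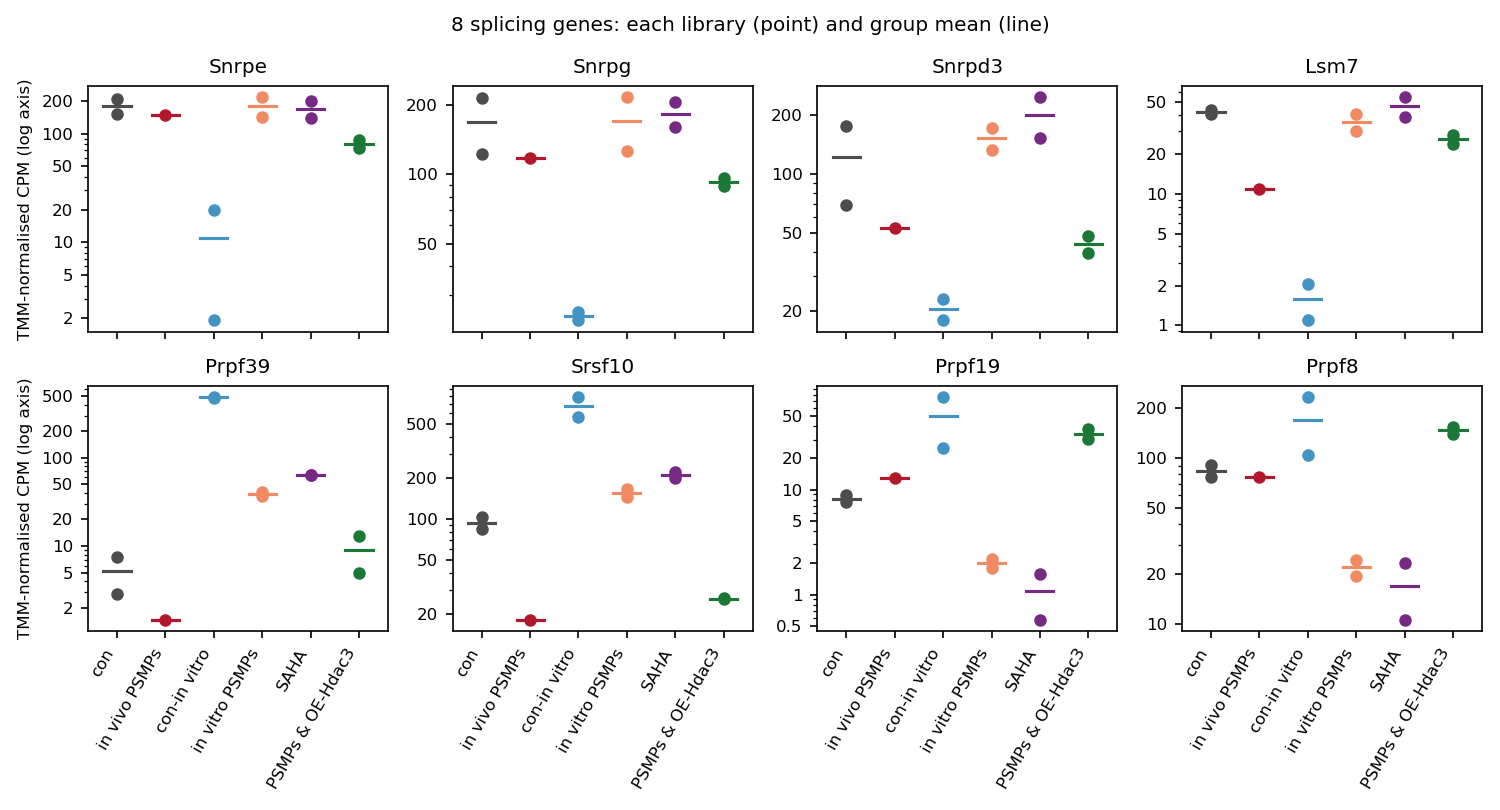
TMM-normalised CPM (log axis) of 8 genes in the 11 libraries, by group; points are libraries and lines group means. The con-in vitro points lie below all others for Snrpe, Snrpg, Snrpd3 and Lsm7 and above all others for Prpf39 and Srsf10.

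The LSM ring split. Lsm7 (ENSMUSG00000035215.9, chr10:80852821-80855209, minus strand), shared by the nuclear ring on U6 and the cytoplasmic ring of mRNA decay, had 40.8 and 43.8 CPM in con, 10.9 in in vivo PSMPs, 2.08 and 1.09 in con-in vitro, 30.2 and 40.1 in in vitro PSMPs, 54.4 and 38.4 in SAHA, and 24.0 and 28.3 in PSMPs & OE-Hdac3. Con-in vitro, with 7 and 4 counts, and in vivo PSMPs were both below the other libraries. The fall in con-in vitro against con was -4.74 on the log2 scale (SE 0.65, edgeR adjusted p = 0.00132). Lsm5 fell too, from 30.8 and 24.2 CPM in con to 8.61 and 6.28 in con-in vitro. Lsm1, the subunit particular to the decay ring, fell from 132 and 178 CPM to 11.9 and 0. Lsm2 rose from 21.1 and 38.2 CPM to 58.2 and 201, and Lsm6 from 19.4 and 25.9 CPM to 43.3 and 67.2. Without any 1 library of con, in vitro PSMPs, SAHA or PSMPs & OE-Hdac3, or without the second con-in vitro library, 1 or none of the LSM ring genes rose. Both rises were lost with library totals, where Lsm2 had an edgeR adjusted p of 0.156 and Lsm6 of 0.548. Lsm4 was at 0 in both con-in vitro libraries but also in 1 con library, and it did not pass (edgeR adjusted p = 0.107).

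Of U2 genes 3 fell in con-in vitro against con and none of the 11 rose. Sf3b5, a small subunit of the complex that holds the branch site, fell from 204 and 188 CPM in con to 8.90 and 1.09. Its level was 203 CPM in in vivo PSMPs, 32.7 and 35.9 in in vitro PSMPs, 35.2 and 17.2 in SAHA, and 74.0 and 73.8 in PSMPs & OE-Hdac3. So every library cultured as a control, exposed in culture, given SAHA or overexpressing Hdac3 was below con. Snrpa1, a protein of U2 that pairs with Snrpb2, fell from 63.3 and 51.9 CPM to 5.93 and 16.9, and Sf3b4 from 49.2 and 49.4 to 12.8 and 16.9. Sf3b1, the large branch-site subunit, had 591 and 443 CPM in con, against 338 and 267 in con-in vitro, and did not pass.

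Genes of other roles were higher in con-in vitro. Prpf39 (ENSMUSG00000035597.19, chr12:65036333-65063386, plus strand), a U1-associated protein of alternative splicing, had 7.43 and 2.89 CPM in con, 1.44 in in vivo PSMPs, 488 and 478 in con-in vitro, 37.0 and 41.1 in in vitro PSMPs, 63.1 and 63.8 in SAHA, and 12.9 and 5.00 in PSMPs & OE-Hdac3. The con-in vitro libraries were above all others, and those of in vitro PSMPs and SAHA above the rest. Its log2 fold change in con-in vitro against con was 6.55 (SE 0.68, edgeR adjusted p = 0.000383), the smallest adjusted p among the tested splicing genes in this comparison.

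Srsf10 (ENSMUSG00000028676.17, chr4:135855747-135869908, plus strand), an SR protein that represses splicing when dephosphorylated, had 103 and 84.5 CPM in con, 18.0 in in vivo PSMPs, 783 and 560 in con-in vitro, 145 and 164 in in vitro PSMPs, 200 and 220 in SAHA, and 25.90 and 26.01 in PSMPs & OE-Hdac3. Its levels did not overlap between any pair of groups. It rose by 2.84 in con-in vitro against con (SE 0.33, edgeR adjusted p = 0.000573). Prpf19 rose by 2.62 and Snrnp70, the U1-70K protein, by 2.08, but neither passed with library totals (edgeR adjusted p = 0.135 and 0.125). Other SR genes fell: Srsf7 had 108 and 113 CPM in con, against 32.3 and 13.9 in con-in vitro, and Srsf3 234 and 119 against 52.8 and 17.5. The same comparison also called Srsf9 and Snrnp35 higher, and Snrnp27 and Prpf6 of the tri-snRNP lower. The call of Snrnp35 rests on 8 counts in con-in vitro against 2 in con. Scaled to library size this is a 38.5-fold ratio (95% counting limits 7.68 and 372).

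Counted over the 60 tested genes, 20 had both con-in vitro libraries below all 9 other libraries (33.3%, against 10.5% of all genes tested), and 4 had both above (6.67% against 8.45%). The 20 were 8 Sm ring, 4 LSM ring, 4 U2, 2 tri-snRNP and 2 SR genes. The 4 were Prpf39, Sf3a1, Srsf1 and Srsf10. A gene at 0 in any of the 9 other libraries could not count as below, which lowers the share of all genes. The first con library had counts for 12316 genes, fewer than the 16736 tested, and for 58 of the 61 splicing genes. Of the calls between the controls, 10 of the 17 lower ones and 2 of the 8 higher ones were kept when each of the 12 deposited columns was left out in turn. The 2 were Srsf10 and Prpf39, and the 10 included Snrpe, Snrpg, Snrpd3, Sf3b5 and Lsm7.

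**Figure D3:**
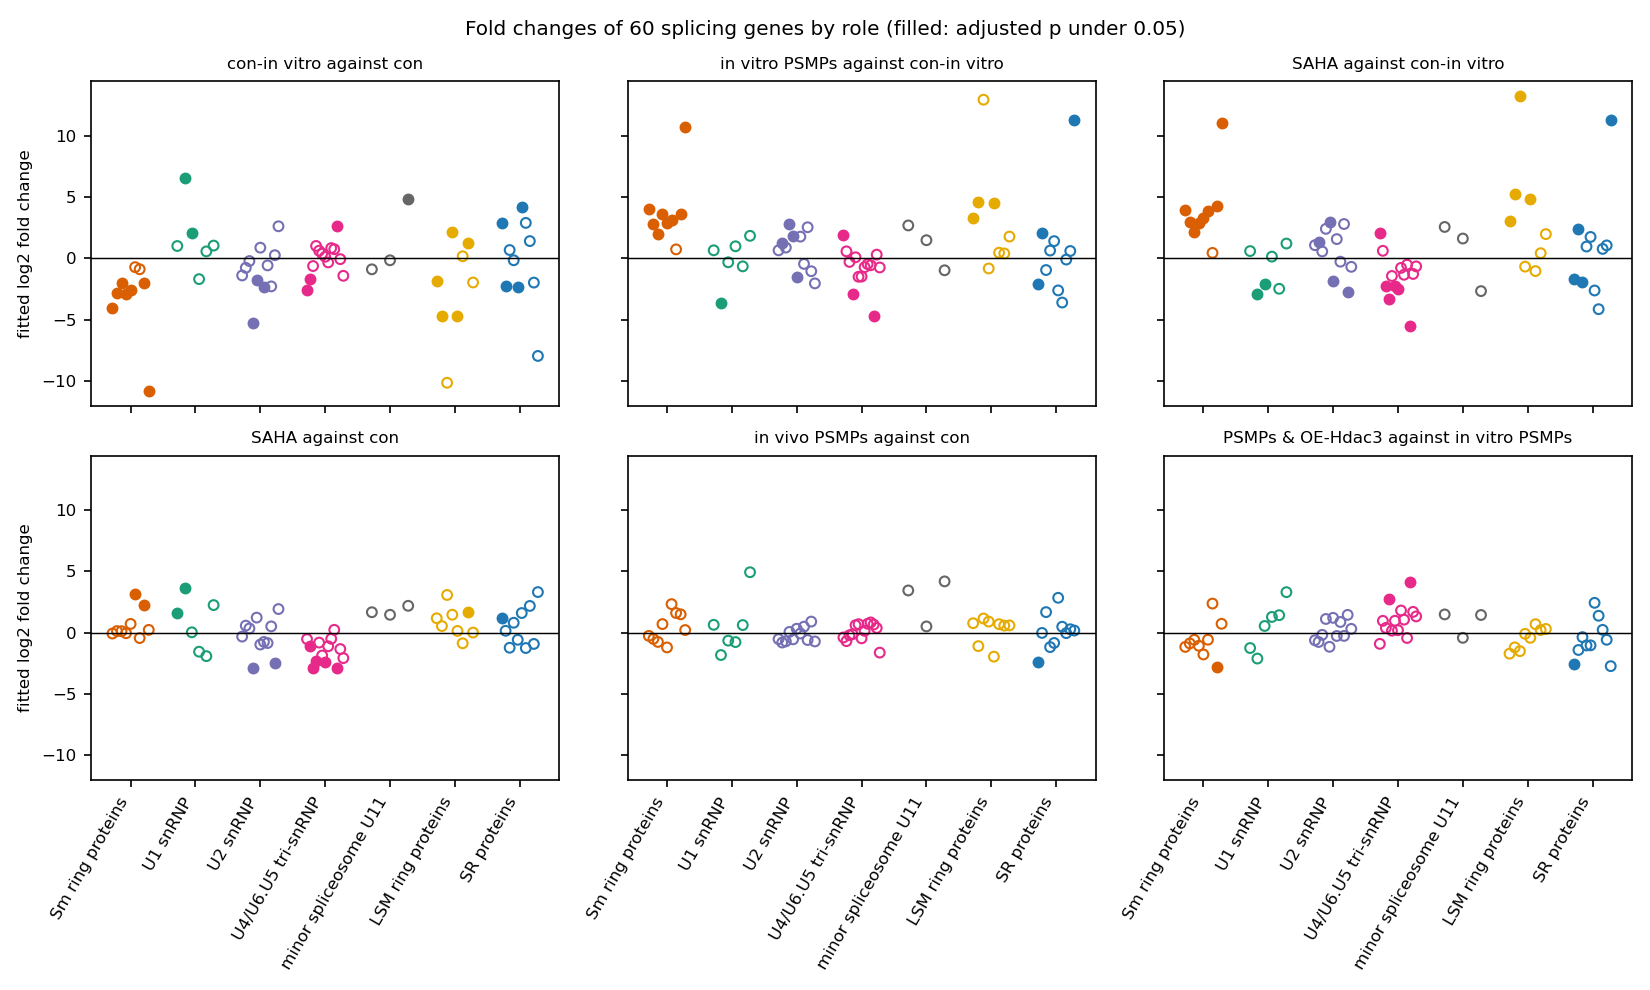
Fitted log2 fold change of the 60 tested genes by role in 6 comparisons; each point is a gene, filled where the edgeR adjusted p was under 0.05. Fitted values beyond 7 or -7 belong to genes at 0 in con-in vitro and are not sizes of change. In the first panel 7 of 9 Sm ring genes are filled below 0, and in the next 2 panels 8 of 9 are filled above 0.

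Exposure in culture was compared with the cultured control. Among the 60 genes, 17 rose with exposure (8.57% of all genes tested were) and 5 were lower (6.78% were). The median was 0.64, beside 0.71 over all genes. In the Sm ring 8 of 9 genes rose, with a median of 3.12, and Snrpd2 did not pass. In the LSM ring 3 of 8 rose: Lsm7 by 4.47, Lsm1 by 4.61 and Lsm5 by 3.32. Sf3b5, Sf3b4 and Sf3b1 rose among the U2 genes, by 2.79, 1.84 and 1.26. Snrnp27 rose by 1.90, Srsf7 by 2.04, and Srsf4, at 0 in con-in vitro and at 11.35 and 21.97 CPM in in vitro PSMPs, was at least 39.1-fold higher. Of the exonic length of Srsf4, 43.0% overlaps Gm12992 on the other strand, so its counts are uncertain. This contrast shares its control libraries with the comparison of the 2 controls above.

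The 5 that fell were Prpf39, Srsf10, Prpf8, Prpf19 and Sf3a1. Prpf8 (ENSMUSG00000020850.14, chr11:75486816-75509449, plus strand), the scaffold of the catalytic centre, had 77.5 and 90.6 CPM in con, 76.6 in in vivo PSMPs, 105 and 233 in con-in vitro, 19.5 and 24.4 in in vitro PSMPs, 23.3 and 10.6 in SAHA, and 154 and 140 in PSMPs & OE-Hdac3. In vitro PSMPs and SAHA were below every other library. Prpf8 fell by 2.94 on the log2 scale in in vitro PSMPs against con-in vitro (SE 0.54, edgeR adjusted p = 0.00727).

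Prpf19 (ENSMUSG00000024735.13, chr19:10895231-10909559, plus strand), the ubiquitin ligase of the complex that activates the spliceosome, had 7.57 and 8.86 CPM in con, 12.9 in in vivo PSMPs, 24.9 and 76.2 in con-in vitro, 1.78 and 2.18 in in vitro PSMPs, 1.58 and 0.569 in SAHA, and 30.5 and 37.5 in PSMPs & OE-Hdac3. The fall in in vitro PSMPs was 4.67 on the log2 scale from con-in vitro (log2 fold change -4.67, SE 0.89, edgeR adjusted p = 0.0086). Sf3a1 had 154 and 141 CPM in con-in vitro and 47.2 and 56.4 in in vitro PSMPs, and did not pass with library totals (edgeR adjusted p = 0.252).

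Summed oocyte markers moved with the Sm ring, from 13836 and 12778 CPM in con-in vitro to 44315 and 58811 in in vitro PSMPs, and 8 of 15 oocyte markers rose, none falling. Their part in the result was not tested. Library totals gave 25 higher and 4 lower of the 60 and moved the median over all genes from 0.71 to 1.70. The count of 22 was 11 without the first in vitro PSMPs library, 7 without the second and 14 without either SAHA library. The Sm ring count of 8 was 5 without the second con-in vitro, the first in vitro PSMPs or either SAHA library, and 3 without the second in vitro PSMPs library. The U2 count of 3 was 1 without the first in vitro PSMPs library, and 0 without the second or either SAHA library. Lsm5, Snrpg, Snrpn, Snrpd3 and Lsm7 among the higher and Srsf10 among the lower kept their call without each column in turn.

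SAHA was set against both controls. Against con-in vitro, 17 of the 60 were higher (11.7% of all genes tested were) and 11 lower (8.14% were), with a median of 0.60 beside 0.66 over all genes. The Sm ring again had 8 of 9 genes higher, median 3.29, and the LSM ring 4 of 8. Lsm7 rose by 4.87, and Lsm4, at 65.9 and 64.1 CPM, was at least 152-fold higher. In the tri-snRNP 5 of 13 fell: Prpf8, Prpf19, Prpf18, Prpf38b and Snrnp40, while Snrnp27 rose. Of the tri-snRNP, 2 genes were lower without the first SAHA library and 1 without the second, and the LSM ring count was 2 without either. Library totals gave 22 higher and 7 lower, with 3 tri-snRNP genes lower and 2 higher.

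Against con the Sm ring looked different. The summed level of 971 and 854 CPM in SAHA stood beside 901 and 600 in con, and 2 of 9 genes rose, Snrpf and Snrpn. In all, 6 of the 60 genes were higher (20.2% of all genes tested were) and 7 lower (6.75% were). The median was 0.07, beside 0.59 over all genes.

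The lower genes against con lay mainly in the tri-snRNP, where 5 of 13 fell and none rose, with a median of -1.34. Snrnp40, a U5 protein with WD repeats, had 117 and 145 CPM in con, 113 in in vivo PSMPs, 70.9 and 98.6 in con-in vitro, 94.2 and 44.0 in in vitro PSMPs, 18.4 and 18.1 in SAHA, and 98.2 and 81.6 in PSMPs & OE-Hdac3. Both SAHA libraries were below all others. It fell by 2.85 on the log2 scale (log2 fold change -2.85, SE 0.47, edgeR adjusted p = 0.0072). Prpf18, which acts in the second catalytic step, had 73.4 and 80.6 CPM in con and 16.4 and 13.3 in SAHA, with a log2 fold change of -2.38 (SE 0.49, edgeR adjusted p = 0.0131). Prpf8, Prpf19 and Prpf6 fell by 2.31, 2.92 and 1.09 on the log2 scale. In U2, Sf3b5 and Sf3b3 fell by 2.90 and 2.48.

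Prpf39 and Srsf10 were higher in SAHA than in con, by 3.62 and 1.17, and lower than in con-in vitro, with log2 fold changes of -2.93 and -1.68. The SAHA value of each lay between the controls. With DESeq2's size factors and with library totals, 4 and 6 tri-snRNP genes were lower than in con and none higher. Without the first SAHA library none of the 60 passed against con and without the second 1 did, with no tri-snRNP gene lower in either case. Without either PSMPs & OE-Hdac3 library 3 tri-snRNP genes were lower. Over all 60 genes, more passed against con without the first con library, and fewer without either PSMPs & OE-Hdac3 library. Against con-in vitro, 9 passed without either SAHA library, and the Sm ring count was then 3 of 9. It was 5 without the second con-in vitro library.

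For exposure in the animal few of these genes passed the threshold, and with 1 library in the exposed group that does not show that the others were unchanged. In vivo PSMPs against con called none of the 60 higher (4.59% of all genes tested were) and 1 lower (0.287% were). In edgeR 8 of the 60 had an unadjusted p under 0.05, as had 4402 of all 16736 genes tested, a larger share. The median was 0.19, beside 0.25 over all genes. The 1 gene was Srsf10, at 18.0 CPM against 103 and 84.5, a log2 fold change of -2.38 (SE 0.42, edgeR adjusted p = 0.0453). This call did not hold in a fit to these 2 groups alone (edgeR adjusted p = 0.618).

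Among the higher values with the smallest p, Srsf2 had 112 CPM in in vivo PSMPs and 33.5 and 36.9 in con (edgeR adjusted p = 0.0929). Snrpf had 15.2 CPM and 3.13 and 2.96 in con (edgeR adjusted p = 0.12). Snrnp35, a U11 protein, had 0.696 CPM and 0.0695 and 0 in con, which is 27 counts against 2, a 23.5-fold ratio (95% counting limits 5.91 and 204.1). None of these passed. The summed granulosa and cumulus markers were highest in in vivo PSMPs, at 167.6 CPM with 4 of 20 at 0, against 47.3 and 61.7 CPM in con with 16 of 20 at 0. Their part in these values was not tested. Without either con library 8 of the 60 passed, without either con-in vitro library 2, and without any 1 of the in vitro PSMPs, SAHA or PSMPs & OE-Hdac3 libraries none did.

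The difference between the effects of both routes of exposure was tested as an interaction, in which no library is shared. Of the 60 genes, 5 had a higher log2 fold change in culture than in the animal (4.87% of all genes tested did) and 2 a lower one (6.40% did). The 5 were Lsm7, Snrpd3, Snrpg, Snrnp27 and Sf3b1, and the 2 were Prpf19 and Prpf8. Lsm7 differed by 6.43 (SE 1.02, edgeR adjusted p = 0.00669), with 4.47 in culture and, in the animal, -1.96, which did not pass. Prpf19 differed by -5.32 (SE 1.21, edgeR adjusted p = 0.0249), with 0.65 in the animal and -4.67 in culture. In a fit to the 4 groups alone none of the 60 passed. Library totals gave 12 higher and 1 lower, and DESeq2's size factors 5 and 1.

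**Figure D4:**
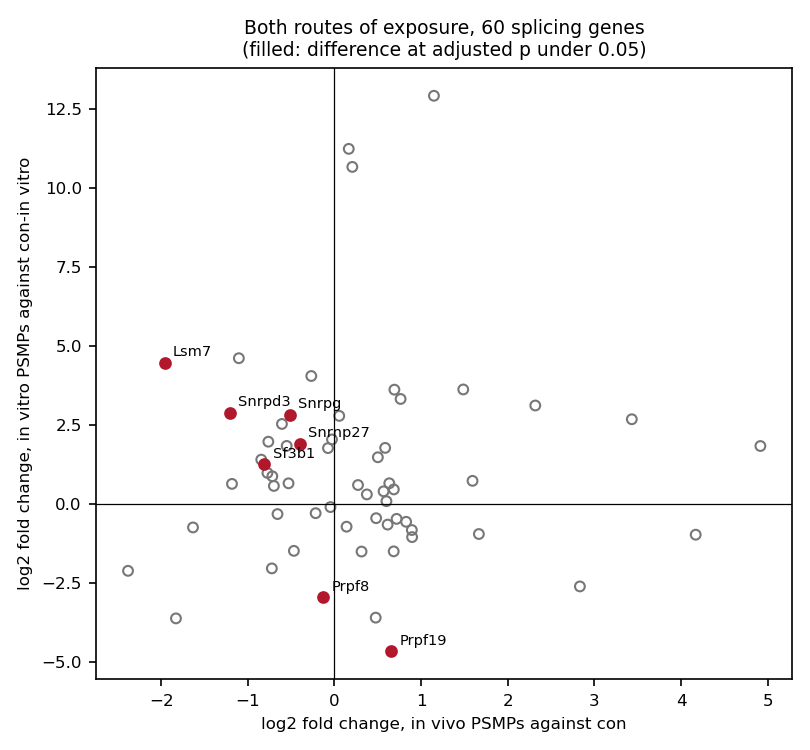
Fitted log2 fold change of the 60 tested genes in in vivo PSMPs against con (horizontal axis) and in in vitro PSMPs against con-in vitro (vertical axis). The 7 filled, named genes are those whose difference had an edgeR adjusted p under 0.05.

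The overexpression of Hdac3 was compared with both exposed groups. Against in vitro PSMPs, 2 of the 60 genes were higher (1.85% of all genes tested were) and 2 lower (2.98% were), with a median of 0.03 beside 0.09 over all genes. Prpf19, at 30.5 and 37.5 CPM against 1.78 and 2.18, rose by 4.09 (SE 0.87, edgeR adjusted p = 0.0316). Prpf8, at 154 and 140 CPM against 19.5 and 24.4, rose by 2.74 (SE 0.53, edgeR adjusted p = 0.0228). Both had fallen in in vitro PSMPs against their cultured control. This comparison shares the in vitro PSMPs libraries with that one.

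Srsf10 and Snrpn fell against in vitro PSMPs. Srsf10 went from 145 and 164 CPM to 25.90 and 26.01, a log2 fold change of -2.57 (SE 0.32, edgeR adjusted p = 0.0111). Snrpn went from 28.4 and 41.0 CPM to 4.95 and 5.09, a log2 fold change of -2.79 (SE 0.63, edgeR adjusted p = 0.0408), and did not pass with library totals (edgeR adjusted p = 0.0744). Library totals gave 5 higher and 1 lower. The Sm ring had a median of -0.88 with 1 of 9 lower.

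Without either PSMPs & OE-Hdac3 library, or without the second in vitro PSMPs library, none of the 60 passed against in vitro PSMPs. There was 1 without the first in vitro PSMPs library, 2 without either SAHA library, and 10 and 12 without the first and second con library. Against in vivo PSMPs no splicing gene and no other gene passed in edgeR (0% of all genes tested). An edgeR unadjusted p under 0.05 was reached by 2407 of the 16736 genes tested, a share near that of the 60 splicing genes. There were 8 splicing genes at an unadjusted p under 0.05, DESeq2's Wald test called 5, and edgeR called 2 without the second con library. The smallest adjusted p were those of Srsf2, Snrpn and Srsf7 among the lower values (0.172, 0.191 and 0.24) and of Snrnp70, Prpf39 and Sf3a3 among the higher (0.212, 0.212 and 0.278). In a fit to these 2 groups alone 28 of the 60 passed.

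Gene length went along with these contrasts. In con-in vitro against con the 12 tested genes of up to 2000 bases had a median log2 fold change of -2.70, and the 7 of over 8000 bases one of 0.74. Over all genes tested, the 4437 of up to 2000 bases had a median of 0.00, and the 2484 of over 8000 bases one of 0.28. The 0.00 was again exactly 0, the value fitted to genes with no counts in either group. It therefore does not show how detected short genes moved, and such genes also enter the rho over all genes. Across the 60 genes Spearman's rho between length and log2 fold change was 0.48, beside 0.13 over the 16736. With exposure in culture rho was -0.58 beside -0.29, and for SAHA against con-in vitro -0.55 beside -0.24. The short genes had medians of 3.22 beside 2.27 over all short genes with exposure in culture, and 2.99 beside 2.14 for SAHA. The long genes had -0.10 beside -0.39, and 0.59 beside -0.32. So higher values of short genes in these 2 comparisons were not particular to splicing genes. Genes at 0 in con-in vitro count in these medians. These values are across genes measured in the same libraries, with the control libraries shared, and are descriptions. The Sm ring genes were 279 to 3442 bases long and the tri-snRNP genes 1837 to 8430, so length and role cannot be told apart here.

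**Figure D5:**
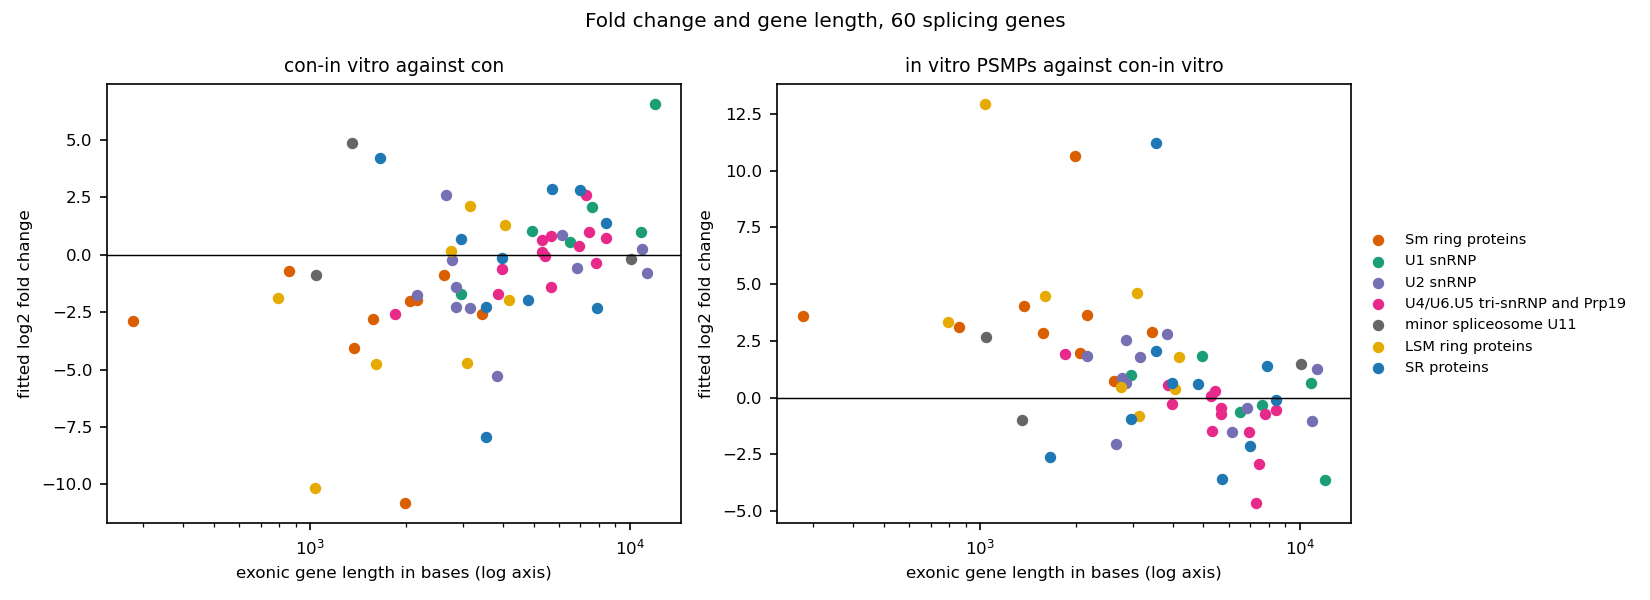
Exonic gene length (log axis) against fitted log2 fold change of the 60 tested genes, coloured by role, for 2 comparisons that share the con-in vitro libraries. Values beyond 7 or -7 belong to genes at 0 in con-in vitro. Short Sm ring genes lie below 0 on the left panel and above 0 on the right.

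Spread within a group differed between groups. Folds were taken here on CPM + 1, so that genes near 0 CPM count as alike. Of the 60 tested genes, 10 differed over 4-fold between the 2 con libraries, and 4 of these over 16-fold. Prpf4 had 0.0695 and 40.7 CPM, Srsf1 38.5 and 0.567, and Srsf11 31.5 and 0.103. Between the con-in vitro libraries 8 differed over 4-fold, between those of in vitro PSMPs 2 did (Snrpd2 and Snrpc), and in SAHA and PSMPs & OE-Hdac3 none did. Values of the genes that varied within con are therefore loose: Snrnp48, another U11 protein, had 23.9 and 1.11 CPM there. Over the 7 comparisons between pairs of groups 37 of the 60 genes passed at least once and 23 never did. Snrnp200, the helicase that unwinds U4 from U6, was among the latter, with 39.7 and 99.1 CPM in con and 25.6 to 118 elsewhere.

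Other genes of the pathway, from lists of proteins outside the name rule, moved in both directions. In in vitro PSMPs against con-in vitro, 7 of 61 tested other spliceosome proteins rose and 7 fell, where 8.57% of all genes tested rose and 6.78% fell. Leaving out 1 library at a time gave 3 to 16 higher, with 3 without either in vitro PSMPs library, 4 without either SAHA library, 11 without the first con-in vitro library, and 15 and 16 without the first and second con library. It gave 3 to 10 lower, with 4 and 3 without the first and second in vitro PSMPs library and 3 without either PSMPs & OE-Hdac3 library. Luc7l2, a U1-associated protein, had a log2 fold change of -7.26 and Sf1, which binds the branch point first, of -4.45 (edgeR adjusted p = 5.93e-05 and 0.00199). Ppih and Bcas2 rose by 3.80 and 2.96. The exon junction complex had 2 of 11 higher (Rnps1 by 3.55 and Magoh by 2.68) and 2 lower, among them Srrm2 at -5.50. Only 1 was lower without any 1 of the con-in vitro, in vitro PSMPs, SAHA or PSMPs & OE-Hdac3 libraries, and only 1 higher without the second in vitro PSMPs library.

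The kinases that phosphorylate SR proteins split within the same comparison. Clk3 rose by 5.89 (edgeR adjusted p = 0.000341), and Srpk2 and Srpk1 had log2 fold changes of -4.09 and -4.03 (edgeR adjusted p = 0.000659 and 0.000864). Of 10 genes in that list 1 rose and 3 fell, and without the first and second con-in vitro library 2 and 3 rose. Heterogeneous nuclear ribonucleoproteins, which often act against SR proteins, had 3 of 26 higher and 11 lower, with a median of -1.30 beside 0.71 over all genes and the same shares of all genes as above. Without the first in vitro PSMPs library 6 were lower. The higher count was 1 without the second con-in vitro library and without any 1 of the in vitro PSMPs, SAHA or PSMPs & OE-Hdac3 libraries. Hnrnpul1 and Hnrnpd had the log2 fold changes of -7.01 and -4.93, and Hnrnpk rose by 1.90. In snRNP assembly, 2 of 17 tested genes rose, Gemin6 by 3.23 and Smn1, the survival motor neuron gene whose complex loads the Sm ring, by 2.37, and Mepce and Sart3 fell by 3.31 and 3.02 on the log2 scale. Neither fall passed without either in vitro PSMPs library, and 4 genes rose without either con or the first con-in vitro library and 1 without the first in vitro PSMPs library.

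In SAHA against con, 10 of the 26 heterogeneous nuclear ribonucleoprotein genes fell and 1 rose, where 6.75% of all genes tested fell and 20.2% rose. Hnrnpul2 was at -4.22 and Pcbp2 at -3.97. The lower count was 2 and 4 without the first and second SAHA library and 6 without either PSMPs & OE-Hdac3 library. In PSMPs & OE-Hdac3 against in vitro PSMPs 1 of them fell, Hnrnpk at -1.83, and 3 rose, among them Pcbp1 at 2.67, where 2.98% of all genes fell and 1.85% rose. Without any 1 of the in vitro PSMPs or PSMPs & OE-Hdac3 libraries none of the list passed, and without the first and second con library 7 and 9 rose. Hnrnpk did not pass without either SAHA library. Mepce and Sart3 rose there by 3.49 and 3.02, and Smn1 fell by 1.59 on the log2 scale. In con-in vitro against con the ribonucleoprotein list had 4 higher and 6 lower, where 14.7% of all genes rose and 10.5% fell, so the higher share was near that of all genes. Without either con-in vitro library 3 were lower. Hnrnpul1 was at 9.37 and Hnrnpf at -2.63.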

How the data were processed

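RNA of mouse oocytes, 5 pooled per library, was amplified with a full-length single-cell kit and made into libraries with a transposase kit, per the labels' protocols. The counts used are raw counts per gene as deposited by the authors. The submitters' processing notes list, without roles, the build mm10, the aligners HISAT2 and Bowtie2 2.2.5, featureCounts, DESeq2, deepTools 3.5.1, SAMtools, Picard and fastp 0.12.4. The strand setting of counting and any batch are not given in the sources used here, so overlapping genes on opposite strands may share reads. The 12 CUT&Tag samples of the series were not analysed here.

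Genes and lists were chosen with earlier results of these data known. Genes were kept by edgeR's filter (minimum count 10) on the 12 columns. The 2 in vivo PSMPs columns, whose chi-square per degree of freedom was 0.444 against 16.5 to 384.5 in other groups, were then merged as their rounded mean, leaving 11 libraries. All groups were fitted together in R 4.3.3 with edgeR 4.0.16 (TMM, robust quasi-likelihood test, 5 residual degrees of freedom, biological coefficient of variation 71.9%) and Benjamini-Hochberg adjustment over 16736 genes. The procedure was tested on simulated data. Nothing in the labels ties replicates to separate animals. The p-values then cover only library-to-library spread, which may be technical. Intervals and floors (3 counts over a group) cover counting error only.

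For each comparison the text names splicing genes past the threshold whose groups do not overlap and whose higher group averages at least 10 CPM, at most 12 per direction, or the 3 of smallest p where none passed; per role the highest and lowest per kb; and up to 2 genes per direction of each pathway list. Snrpd1, Snrpd2, Snrpc, Snrnp48, Snrnp200, Srsf1 and Srsf11 were named outside this rule, after their values were seen. Alternatives were other filters, size factors, DESeq2 1.42.0, a replicate block, fits to fewer groups and leaving out each column. The values of 1 splicing gene are not reported here, though it stays in all fits and counts.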

Additional observations from a re-analysis of the deposited data

Results flagged for a closer look

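Of the 60 tested splicing genes, 7 differed in the effect of microplastics between exposure in culture and in the animal. The test was edgeR's quasi-likelihood test of the difference itself (n = 2 libraries per group, with 1 in in vivo PSMPs). Over all genes tested, 4.87% had a higher log2 fold change in culture and 6.40% a lower one. The count of 7 is thus near the share of all genes. The difference, in log2 fold change in culture minus that in the animal, was 6.43 for Lsm7, 4.10 for Snrpd3, 3.34 for Snrpg, 2.30 for Snrnp27 and 2.07 for Sf3b1. It was -5.32 for Prpf19 and -2.81 for Prpf8. The edgeR adjusted p ran from 0.00669 for Lsm7 to 0.0495 for Prpf8. For each of the 7, the change in culture passed the threshold and that in the animal did not. Lsm7 kept its call when each deposited column was left out, and the other 6 did not. In a fit to the 4 groups alone the adjusted p was 0.078 for Lsm7 and 0.0963 to 0.197 for the others. Between the controls, con-in vitro against con, the log2 fold change was -4.74 for Lsm7, -2.58 for Snrpd3, -2.81 for Snrpg and -2.58 for Snrnp27, and 2.62 for Prpf19.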

How the results depend on the processing

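The scaling moved the median over all genes. With unadjusted library totals as the scaling, the median over all genes went from 0.25 to 0.58 in in vivo PSMPs against con, from 0.66 to 1.37 in SAHA against con-in vitro, from 0.59 to 0.43 in SAHA against con, from 0.09 to 0.60 and from 0.23 to 0.53 in PSMPs & OE-Hdac3 against in vitro and in vivo PSMPs, and from 0.06 to 0.66 in the difference of the PSMPs effects. With DESeq2's size factors it was 0.71 in SAHA against con and 0.36 in PSMPs & OE-Hdac3 against in vivo PSMPs. The count of splicing genes that passed was within 1.5 times of 22 and 28 for in vitro PSMPs and SAHA against con-in vitro under each alternative other than leaving out a column. Elsewhere it moved. For in vivo PSMPs against con (1) it was 5 with DESeq2's Wald test, 7 with the in vivo PSMPs columns as 2 libraries, 0 in a fit to the groups compared and 0 over genes with 10 counts in every library. For SAHA against con (13) it was 20 with the Wald test and 3 with only its groups. For PSMPs & OE-Hdac3 against in vitro PSMPs (4) it was 13, 27 with only its groups, 9 with 2 in vivo libraries and 10 with 10 counts in every library. Against in vivo PSMPs (0) these were 5, 28, 7 and 1. For con-in vitro against con (25) it was 5 with only its groups. For the difference of the PSMPs effects (7) it was 11 with a filter at 50 counts, 13 with library totals, 22 with the Wald test, 0 with only its groups, 23 with 2 in vivo libraries and 12 with 10 counts in every library. The replicate block, which keeps the in vivo PSMPs columns apart, gave 7 for in vivo PSMPs against con, 4 for PSMPs & OE-Hdac3 against in vivo PSMPs, 19 for the difference, 23 for in vitro PSMPs and 30 for SAHA against con-in vitro. Same-numbered libraries correlated at -0.289 to 0.060 in their deviations from the group means. With 2 libraries per group this cannot show whether they share a batch. Leaving out each column gave 0 to 8, 7 to 28, 9 to 35, 0 to 24, 0 to 12, 0 to 2, 14 to 30 and 1 to 23, in the order in vivo PSMPs, in vitro PSMPs, SAHA against con-in vitro, SAHA against con, PSMPs & OE-Hdac3 against in vitro and against in vivo PSMPs, con-in vitro against con, and the difference. The difference was 18 and 23 without the first and second con library, 17 and 11 without those of con-in vitro, 4 and 1 without those of in vitro PSMPs, 4 without either SAHA library and 3 without either PSMPs & OE-Hdac3 library. No named gene changed direction under any alternative. The cause of these moves was not tested. A filter set after the in vivo PSMPs columns were merged, chosen after seeing the data, moved no count by over 1.5 times. In single con-in vitro libraries of 6.22 M and 6.40 M counts, 3 counts are 0.890 and 0.820 CPM, the upper limit that a count of 0 allows in each. The bounds on fold changes use 3 counts over a group instead.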
